A study of Homo sapiens with 4 samples.

Results

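DPPA4, DPPA3, UTF1, ZNF206, VENTX2, PRDM14 and LIN28 are genes whose transcripts mark undifferentiated human pluripotent cells, apart from the core factors OCT4, NANOG and SOX2. Their mRNA levels were followed in NCCIT cells, an established human embryonic carcinoma (hEC) line, after silencing of each core factor. The genes were picked by name, and the 7 genes are read by 8 of the 47293 probes on each Illumina BeadChip: GI_8922611-S for DPPA4, GI_37543683-S and GI_40548325-S for DPPA3 (listed as LOC338759), GI_4507858-S for UTF1, GI_14249487-S for ZNF206 (now ZSCAN10), GI_33356561-S for VENTX2 (now VENTX), GI_13375635-S for PRDM14 and GI_34222338-S for LIN28 (now LIN28A). All 4 groups were NCCIT cells grown with serum, harvested 2.5 days after transfection per the labels, with 3 arrays each described as biological replicates. The paper's methods name a slightly earlier day for the deposited arrays, and the labels' time is used here. Mock cells received the Hyperfect transfection reagent, and no esiRNA is named for them. The other groups received esiRNA (endoribonuclease-prepared siRNA, a pool of short RNAs cut from a long double strand) against OCT4, NANOG or SOX2 transcripts. The labels do not say whether the replicates came from separate transfections, so the p-values measure the spread between these arrays.

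In pluripotent cells OCT4 and SOX2 bind DNA side by side at many enhancers, often together with NANOG, and keep their own genes and many others active. The 7 genes encode proteins of different kinds. DPPA4 and UTF1 are chromatin-associated nuclear proteins, DPPA3 (also called STELLA) is a maternal and germ cell factor that guards DNA methylation, ZNF206 is a zinc finger protein, VENTX2 is a homeobox protein, PRDM14 is a PR domain protein of pluripotent and primordial germ cells, and LIN28 is an RNA-binding protein that blocks the maturation of let-7 microRNAs.

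The sequences that define the treatments are the primer pairs that amplified the templates of the esiRNA pools, shown here without their T7 tail because they fix which stretch of each transcript was targeted. Of the NANOG pools, the labels do not say which was used for these arrays.
OCT4 forward primer: gagaaggagaagctggagca
OCT4 reverse primer: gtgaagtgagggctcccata
SOX2 forward primer: catcacccacagcaaatgac
SOX2 reverse primer: ggaaagttgggatcgaacaa
NANOG 1 forward primer: aactggccgaagaatagcaa
NANOG 1 reverse primer: ctcgctgattaggctccaac
NANOG 2 forward primer: gactgagctggttgcctcat
NANOG 2 reverse primer: tctggaaccaggtcttcacc

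Between 11196 and 12858 probes per array were detected, meaning that the scanner software scored them at or above 0.99 against its negative control beads, and replicate arrays correlated at 0.994 to 0.998. Intensities are given after background correction with an offset of 50 and quantile normalization, on which scale a probe at the level of the negative controls reads about 57. The offset shortens every fold change of a probe that falls close to that level. POU5F1, the gene of OCT4, read 703, 591 and 645 on the mock arrays and 73.8, 68.3 and 60.6 in the OCT4 knock-down, where 1 of 3 arrays detected it. NANOG fell from 377, 397 and 354 to 135, 124 and 129 in its own knock-down, a log2 fold change of -1.54, and remained detected on all 3 arrays. No probe could be named as SOX2 here, so the SOX2 knock-down was not checked at its target on these arrays. The paper reports that SOX2 was below detection on the arrays. It followed SOX2 by real-time PCR and probed the silenced cells for SOX2 protein by Western blot. A probe was called changed at an adjusted p under 0.01 and a change of at least 1.5-fold (limma, Benjamini-Hochberg over all 47293 probes). In a bulk sample, fewer cells that express a gene and less RNA per cell cannot be told apart.

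UTF1 kept a readable signal in every group. The probe read 3690, 3250 and 3620 on the mock arrays, 256, 266 and 267 after OCT4 silencing, 1790, 1920 and 1840 after NANOG silencing and 174, 171 and 201 after SOX2 silencing. The groups did not overlap with mock in any knock-down. The log2 fold change was -3.74 ± 0.07 (SE) in the OCT4 knock-down, or 13.3-fold lower, and -4.27 ± 0.07 in the SOX2 knock-down, or 19.3-fold lower (adjusted p = 2.65e-11 and 1.26e-11). In the NANOG knock-down UTF1 fell by 0.93 on the log2 scale (95% confidence interval -1.07 to -0.78, adjusted p = 7.64e-06), to 52.7% of the mock intensity. Even at its lowest, 171 in the SOX2 knock-down, UTF1 was detected.

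**Figure D1:**
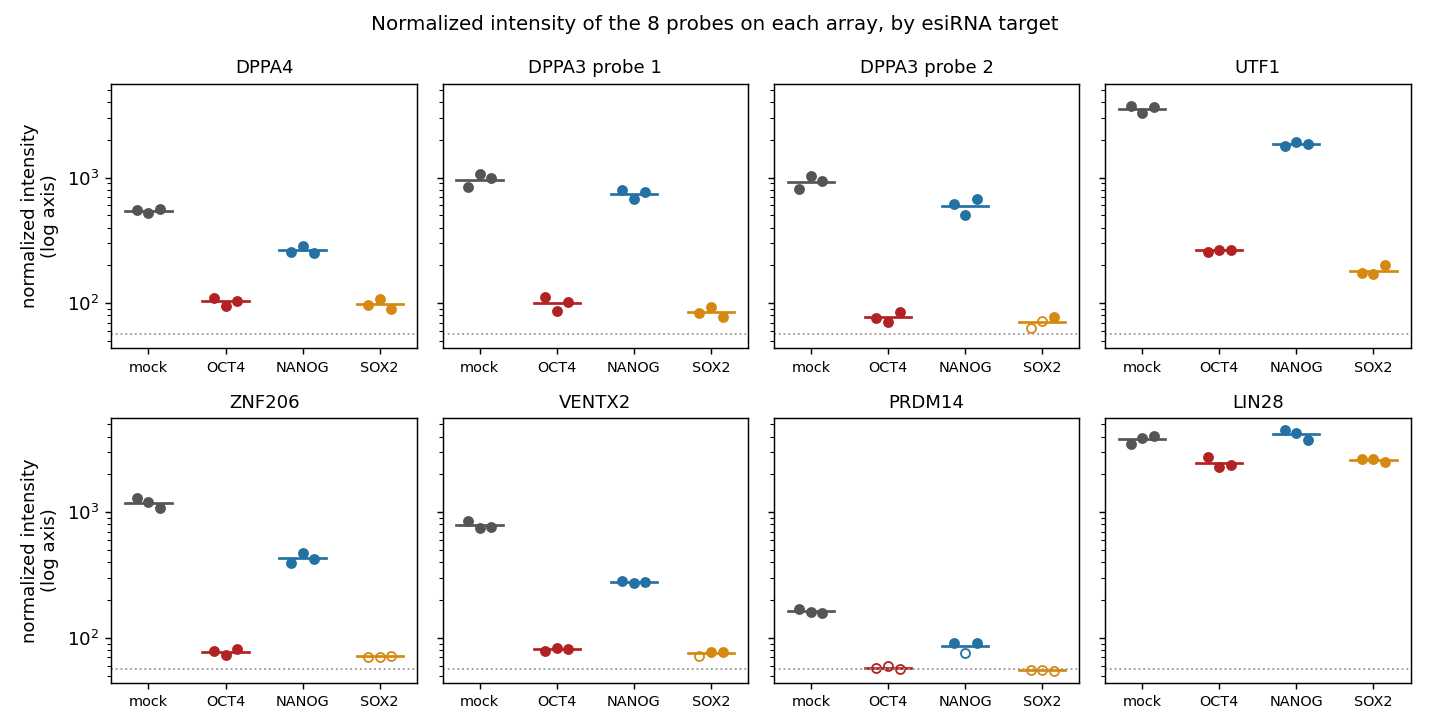
Normalized intensity (log axis) of each probe on each of the 12 arrays, by esiRNA target. Filled points were detected and open points were not, bars are geometric means of 3 arrays, and the dotted line marks the negative control level near 57. All probes but LIN28 lie far below mock after OCT4 or SOX2 silencing, and LIN28 reads 2290 or more on every array.

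ZNF206 and VENTX2 had the largest falls of the 8 probes in the NANOG knock-down, although PRDM14 fell as far as they did where the background was subtracted with no offset. ZNF206 read 1300, 1200 and 1090 in mock, 79.1, 73.0 and 82.0 in the OCT4 knock-down, 392, 475 and 428 in the NANOG knock-down and 71.1, 70.5 and 72.4 in the SOX2 knock-down. It was detected on all 3 OCT4 arrays and on none of the SOX2 arrays. The latter thus give only a bound, at least 16.3-fold lower. The adjusted p there, 3.71e-11 (limma), belongs to the fitted difference and does not test the bound. In the OCT4 knock-down ZNF206 fell 15.3-fold, with a log2 fold change of -3.93 ± 0.08 (SE), and ranked in place 6 from the bottom of all 47293 probes. Its log2 fold change in the NANOG knock-down was -1.47 (95% confidence interval -1.64 to -1.30).

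VENTX2 read 854, 751 and 764 in mock and 283, 273 and 281 in the NANOG knock-down, a log2 fold change of -1.50 (95% confidence interval -1.61 to -1.39). It read 78.3, 83.8 and 81.9 in the OCT4 knock-down and 71.5, 77.3 and 77.9 in the SOX2 knock-down, where 2 of 3 arrays detected it. The log2 fold changes were -3.28 ± 0.05 (SE) and -3.38 ± 0.05, with adjusted p = 1.39e-11 and 1.26e-11. The 3 arrays of every knock-down lay below the mock arrays, and the NANOG arrays lay between mock and the other knock-downs.

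DPPA4 was lower in all knock-downs and detected on every array. It read 548, 520 and 565 in mock, 111, 95.3 and 105 in the OCT4 knock-down, 258, 286 and 251 in the NANOG knock-down and 96.3, 108 and 90.0 in the SOX2 knock-down. The falls were 5.24-fold after OCT4 silencing, 5.57-fold after SOX2 silencing and 2.06-fold after NANOG silencing (adjusted p = 2.44e-09, 1.73e-09 and 1.13e-05). No array of one knock-down overlapped with mock, and the OCT4 and SOX2 arrays overlapped with each other.

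DPPA3 fell far after OCT4 or SOX2 silencing, and after NANOG silencing its probes stood at 77.4% and 64.0% of their mock intensity. Its first probe read 848, 1060 and 993 in mock, 112, 87.5 and 102 in the OCT4 knock-down, 789, 680 and 774 in the NANOG knock-down and 83.8, 94.1 and 77.5 in the SOX2 knock-down. Its second probe read 814, 1030 and 947, then 76.3, 71.2 and 84.6, then 613, 502 and 676, and then 63.8, 72.1 and 78.4 in the same order, with 1 of 3 SOX2 arrays detected. Both probes fell after OCT4 silencing, with log2 fold changes of -3.27 and -3.59, and after SOX2 silencing, with -3.50 and -3.70 (adjusted p at most 4.01e-09).

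In the NANOG knock-down the DPPA3 probes fell on opposite sides of the threshold. The log2 fold change was -0.37 (95% confidence interval -0.61 to -0.13, adjusted p = 0.0815) for the first and -0.64 (-0.91 to -0.37, adjusted p = 0.00827) for the second, and the intervals overlap. The mean of both probes gave -0.51 with adjusted p = 0.0122, which is not a call. The call of the second probe was lost under 15 of 25 alternatives, with log2 fold changes from -0.74 to -0.47 over all of them and adjusted p up to 0.279. Among these were 8 of the 12 settings that leave out 1 array (mock replicate 2 or 3, OCT4 replicate 1, 2 or 3, NANOG replicate 1 or 2, SOX2 replicate 2), with log2 fold changes from -0.74 to -0.52 and adjusted p from 0.00728 to 0.0401 over the 12. All 3 NANOG arrays lay below all 3 mock arrays on both probes. RefSeq names 12 DPPA3 pseudogenes, 8 of VENTX, 3 of DPPA4 and 3 of LIN28A, and whether the probes also read such copies was not tested.

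PRDM14 lay close to the negative control level already in mock, and it left the readable range after OCT4 or SOX2 silencing. It read 170, 161 and 157 in mock and was detected on all 3 arrays. It read 57.5, 60.0 and 57.0 in the OCT4 knock-down and 55.6, 55.3 and 54.8 in the SOX2 knock-down, at the negative control level and undetected on all 6 arrays. Against the lowest detected signals the fall was thus at least 2.3-fold in the OCT4 knock-down and 2.33-fold in the SOX2 knock-down. The adjusted p, 2.28e-08 and 1.44e-08 (limma), belong to the fitted differences and do not test these bounds. The SOX2 bound may be too high. On SOX2 replicate 3 the lowest detected signal was 62.5, although ZNF206 went undetected there at 72.4. In the NANOG knock-down it read 91.5, 76.1 and 91.1, was detected on 2 of 3 arrays, and fell by 0.92 on the log2 scale (95% confidence interval -1.06 to -0.78, adjusted p = 6.03e-06). This close to background the value depended on the background correction, and with the background subtracted instead, the log2 fold change in the NANOG knock-down was -1.64.

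LIN28 had the smallest changes of the 8 probes in each knock-down against mock. It read 3480, 3910 and 4030 in mock, 2740, 2290 and 2360 in the OCT4 knock-down, 4480, 4250 and 3790 in the NANOG knock-down and 2630, 2670 and 2500 in the SOX2 knock-down. The OCT4 and SOX2 arrays lay below the mock arrays, and the NANOG arrays overlapped with them. LIN28 fell 1.55-fold in the OCT4 knock-down, with a log2 fold change of -0.63 (95% confidence interval -0.81 to -0.45, adjusted p = 0.000222). In the SOX2 knock-down the log2 fold change was -0.55 (-0.73 to -0.37, adjusted p = 0.000644), which at 1.46-fold was under the fold limit and not a call. In the NANOG knock-down it was 0.13 (-0.05 to 0.31, adjusted p = 0.506).

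These LIN28 values depended on how the arrays were scaled. The OCT4 arrays read higher as scanned, with median raw signals of 115.9 to 124.2 against 97.5 to 104.7 in mock. Those medians lie just above the raw negative control level, which was 110.2 to 118 on the OCT4 arrays and 92.5 to 99.8 in mock. They thus mostly show a higher background, which the background correction is meant to remove. With no normalization between arrays the log2 fold change of LIN28 was -0.04 in the OCT4 knock-down, -0.36 in the SOX2 knock-down and 0.31 in the NANOG knock-down, and none was called. Under that setting the median of the probes detected in mock rose by 0.54 in the OCT4 knock-down. Relative to that median LIN28 stood at -0.58 in the OCT4 knock-down, and over all 8 ways of correcting and scaling the arrays it stood between -0.58 and -0.55. The same relative values were -0.55 to -0.46 in the SOX2 knock-down and 0.13 to 0.15 in the NANOG knock-down. Median scaling, rank-invariant scaling and no normalization differ only by a constant per array, which cancels in these relative values. Their agreement was therefore fixed in advance and does not show that LIN28 is steady under scaling. The OCT4 call was also lost without mock replicate 3 and without OCT4 replicate 2, at a log2 fold change of -0.58 in each case, under rank-invariant scaling, at -0.56, and under the methods' t-test with Benjamini-Hochberg adjustment (adjusted p = 0.0491). In the SOX2 knock-down LIN28 passed the fold limit without mock replicate 1, at -0.61, and under median scaling, at -0.67.

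**Figure D2:**
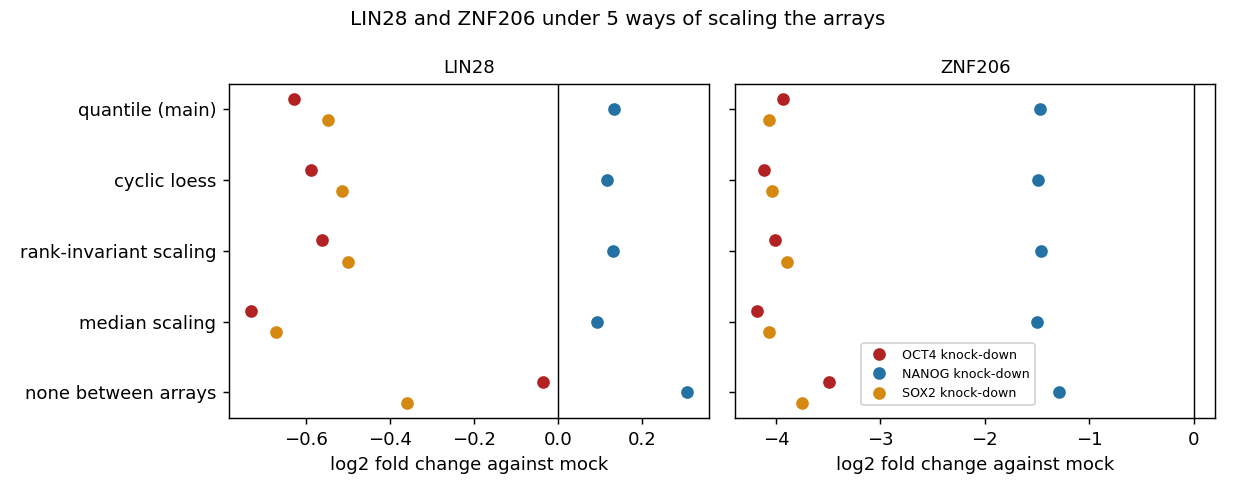
Log2 fold change against mock of LIN28 (left) and ZNF206 (right) in each knock-down under 5 ways of scaling the arrays; the horizontal axes differ in range. LIN28 in the OCT4 knock-down moves from -0.73 under median scaling to -0.04 with no scaling between arrays, while ZNF206 stays below -3 after OCT4 or SOX2 silencing.

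Counted together, 8 of the 8 probes were called lower in the OCT4 knock-down, 6 in the NANOG knock-down and 7 in the SOX2 knock-down, and none was called higher. Over all probes 1.91% were called lower in the OCT4 knock-down, 0.584% in the NANOG knock-down and 1.85% in the SOX2 knock-down. Among the 10553 probes detected on all mock arrays, as all 8 were, the shares were 8.57%, 2.62% and 8.3%. The median log2 fold change of the 8 probes was -3.27, -0.92 and -3.44 with OCT4, NANOG or SOX2 silenced, against -0.0052, -0.00088 and -0.0039 for all probes and -0.07, -0.01 and -0.08 for all probes detected in mock. The members were chosen with results of these data known and their names come from the study's list of genes that changed after OCT4 or NANOG silencing, so these counts describe the members and support nothing. Under the methods' t-test with Benjamini-Hochberg adjustment 0 of the 6 NANOG calls held. The 3 comparisons share the mock arrays.

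**Figure D3:**
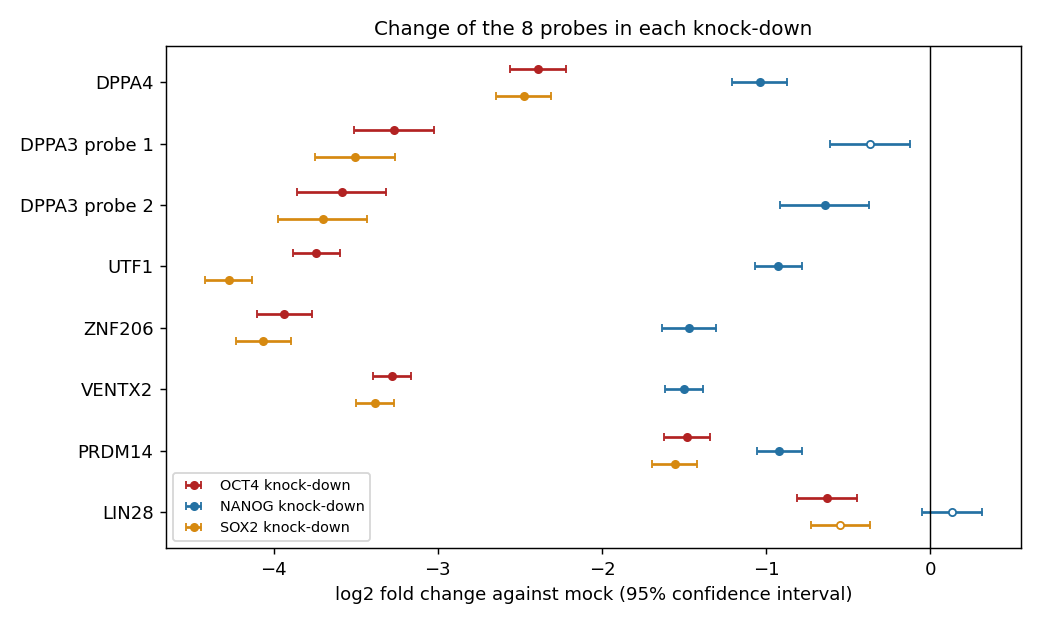
Log2 fold change against mock with its 95% confidence interval for each probe in the 3 knock-downs. Filled points passed both thresholds and open points did not, and PRDM14 after OCT4 or SOX2 silencing and ZNF206 after SOX2 silencing were undetected on all arrays, so that their points are fitted values and not readings. In every row the OCT4 and SOX2 points lie to the left of the NANOG point, and they are farthest apart for UTF1, at -3.74 and -4.27.

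The falls after OCT4 and SOX2 silencing were set against each other directly. None of the 8 probes was called in this comparison, and over all probes 0% were called in either direction, although 3493 had an unadjusted p under 0.05. UTF1 had an adjusted p of 0.111, the smallest on the array, which the Benjamini-Hochberg adjustment gave to other probes as well. It stood 0.53 higher on the log2 scale in the OCT4 knock-down (95% confidence interval 0.39 to 0.68). Its values of 256, 266 and 267 there did not overlap with the SOX2 values of 174, 171 and 201. UTF1 was called here with no normalization between arrays, at 0.89, and under the methods' t-test without adjustment, at 0.69. For the other members the differences ran from -0.08 for LIN28 (-0.26 to 0.10) to 0.24 for the first DPPA3 probe (-0.01 to 0.48), and a missed threshold does not show that the knock-downs acted alike. PRDM14 was undetected in both and gave no readable difference. The sign of the small fitted differences of DPPA4, ZNF206, VENTX2, PRDM14 and the second DPPA3 probe turned under median scaling, cyclic loess and rank-invariant scaling, and that of LIN28 with no normalization.

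The NANOG knock-down differed from both others, which had lost the NANOG signal as well. NANOG was undetected on all OCT4 and SOX2 arrays, at fitted log2 fold changes against mock of -2.56 and -2.60. In its own knock-down the value was -1.54. POU5F1 stood at a fitted -3.32 after SOX2 silencing and at -0.39 after NANOG silencing (adjusted p = 0.0101, not a call). The contrasts below thus do not set the loss of single factors against each other at like depth. Between the OCT4 and NANOG knock-downs 7 of the 8 probes were called lower after OCT4 silencing, against 1.58% of all probes, and between the SOX2 and NANOG knock-downs all 8 were called lower after SOX2 silencing, against 1.59%. The widest log2 differences between OCT4 and NANOG silencing were those of the DPPA3 probes, at -2.90 (95% confidence interval -3.14 to -2.66) for the first and -2.94 (-3.21 to -2.67) for the second, followed by UTF1 at -2.81, ZNF206 at -2.46, VENTX2 at -1.78 and DPPA4 at -1.35. UTF1 had the widest difference between SOX2 and NANOG silencing, at -3.35 (-3.49 to -3.20). LIN28 differed by -0.76 on the log2 scale between OCT4 and NANOG silencing (adjusted p = 5.98e-05), and this call was lost with no normalization between arrays, at -0.34, where its SOX2 counterpart of -0.68 was lost as well, at -0.67.

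PRDM14, undetected on the OCT4 and the SOX2 arrays, allowed only bounds here. It was at least 1.22-fold lower after OCT4 than after NANOG silencing and at least 1.23-fold lower after SOX2 than after NANOG silencing. Neither bound reaches the fold limit. The adjusted p, 7.41e-05 and 2.7e-05 (limma), belong to the fitted differences and do not test the bounds. The SOX2 bound again rests on the low detected signal of SOX2 replicate 3 and may be too high. On the fitted values the first missed the limit and the second passed it, which is the difference between 7 and 8 calls. The first passed under 7 of 25 alternatives, among them leaving out NANOG replicate 2, and the second was lost under 5 of 25. In the NANOG knock-down against mock, the intervals of VENTX2 and ZNF206 overlapped each other and no other member's. Those of DPPA4, PRDM14 and UTF1 overlapped one another and that of the second DPPA3 probe, and those of the first DPPA3 probe and LIN28 lay nearest to 0.

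**Figure D4:**
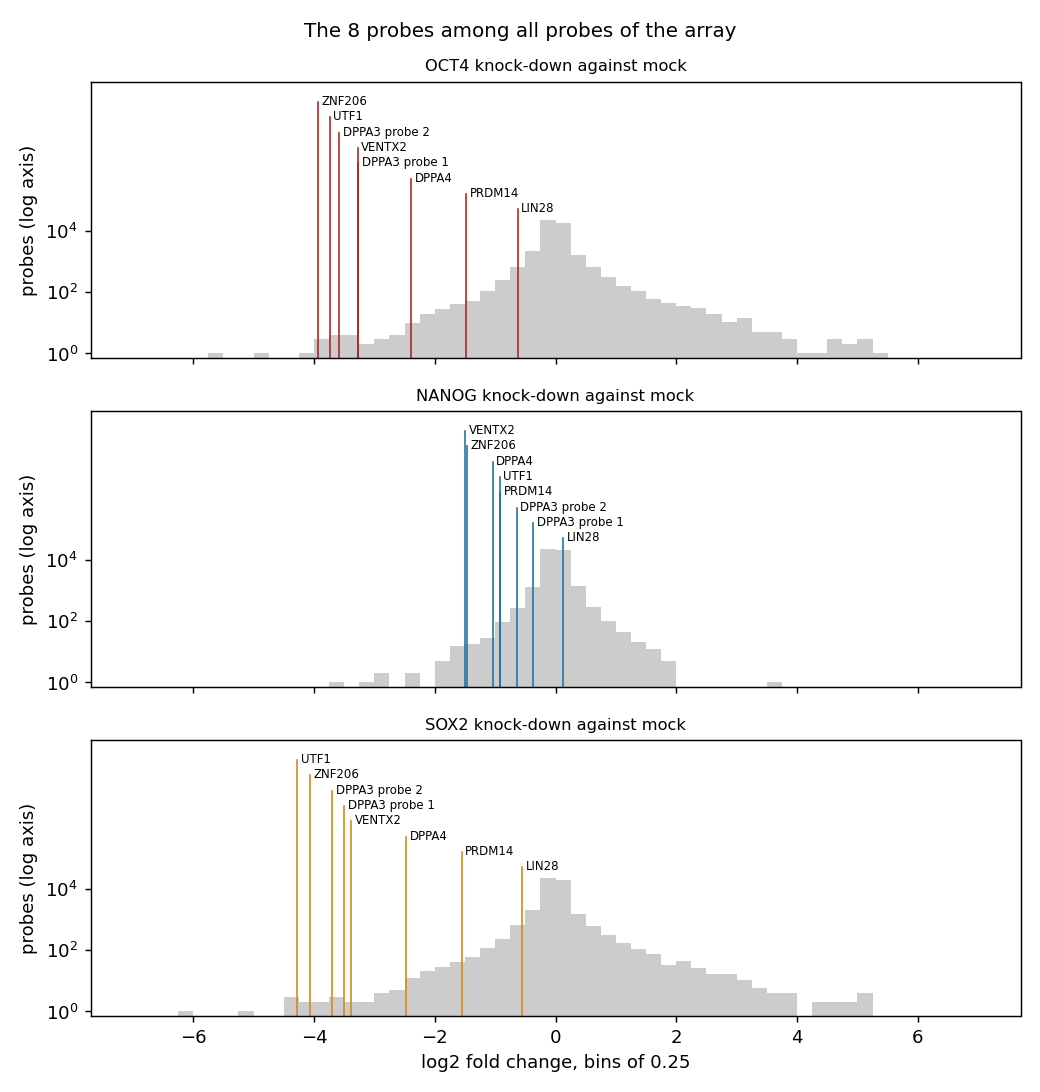
Number of probes (log axis) by log2 fold change against mock in bins of 0.25 for each knock-down, with the 8 probes marked by lines whose height carries no value. Most of the 8 lie in the thin left tail after OCT4 and SOX2 silencing, and LIN28 lies nearest to 0 in every panel.

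The fold sizes above are low estimates for probes near background. In the authors' mean signals, which are background-subtracted with no offset and leave many undetected probes empty, the first DPPA3 probe was 17.6-fold and ZNF206 41.2-fold lower in the OCT4 knock-down, UTF1 16.7-fold and DPPA4 8.56-fold. PRDM14 was 3-fold lower in the NANOG knock-down in those means and empty in the OCT4 and SOX2 knock-downs. LIN28, far above background, was 1.71-fold lower after OCT4 silencing and 1.54-fold lower after SOX2 silencing there.

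Across the 12 arrays the member probes were correlated, which follows from the group means and is given as a description of arrays that share 4 groups. LIN28, which did not fall after NANOG silencing, correlated at 0.722 to 0.941 with the others. PRDM14 was undetected on all OCT4 and SOX2 arrays, so its correlations here and below rest in part on background readings. Pearson correlations between member probes ran from 0.722 for PRDM14 with LIN28 to 0.995 for the DPPA3 probes with each other, and ZNF206 with VENTX2 also reached 0.995. Such values were common here: between 122 probes for LIN28 and 528 for DPPA3, of the 10545 other probes detected in mock, exceeded 0.95.

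By this measure over 12 arrays, the probes most like UTF1 were CBS (r = 0.9984), an enzyme of cysteine synthesis, GDF3 (0.9966), a TGF-beta family ligand, and ASRGL1 (0.9960). For VENTX2 they were SFRP2 (0.9995), a secreted Wnt modulator, CD1D (0.9966) and LOC219700 (0.9952). For ZNF206 the leading named probe was HLA-DQB1 (0.9981), followed by a pair with no gene symbol (0.9972 and 0.9961), the first of which was also the closest to DPPA4 (0.9974), ahead of ACTN3 (0.9968) and MOX2 (0.9964). For DPPA3, as the mean of its probes, they were PPP2R2B (0.9968), TDGF1 (0.9965), a Nodal co-receptor, and KIAA1573 (0.9961). For PRDM14 they were NANOG (0.9945), an unnamed probe (0.9945) and DUT (0.9936), and for LIN28 the closest was C20orf12 (0.9891), with the next pair unnamed. The closest probes by Spearman's rho were different ones for every member but LIN28, which shared 2 of 3.

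Other pluripotency genes were taken from a list of 55 symbols, of which 31 could be named, with 34 probes. Since the names come from the study's own list of changed genes, the counts are set by that choice. In the OCT4 knock-down 29 of the 34 probes were called lower and 4 higher, in the NANOG knock-down 14 and 2, and in the SOX2 knock-down 28 and 3. The median log2 fold changes were -1.54, -0.47 and -1.64 in that order. GDF3 fell with OCT4, NANOG or SOX2 silenced, at log2 fold changes of -4.86, -1.31 and -5.08 in that order. ETV4, an ETS factor, fell after OCT4 and after SOX2 silencing, at -2.97 in both, with -0.50 (adjusted p = 0.0177, not a call) in the NANOG knock-down. TDGF1 fell likewise, at -2.57 and -2.78, with -0.42 (adjusted p = 0.0258, not a call) in the NANOG knock-down. EBAF, a Nodal inhibitor of the Lefty pair, went the other way and rose by 4.32, 1.69 and 4.37 with OCT4, NANOG or SOX2 silenced.

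Among 19 relatives of the members, only PRDM1, PRDM2 and PRDM4 could be named, and all 3 were called higher after OCT4 and after SOX2 silencing and none after NANOG silencing. Here and for the lists below, the names come from the study's list of changed genes. An unchanged relative could thus hardly be named, and that choice sets the counts. Over all probes 2.47%, 2.52% and 0.668% were called higher after OCT4, SOX2 and NANOG silencing. PRDM1, a transcriptional repressor that acts in germ cell and plasma cell differentiation, rose by 0.78 on the log2 scale after OCT4 silencing and by 0.89 after SOX2 silencing, opposite to PRDM14. After OCT4 silencing it kept its sign under all 8 ways of correcting and scaling the arrays and was called under 5 of them, and PRDM2 and PRDM4 were each called there under 7.

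Of 20 known let-7 targets, which LIN28 protects in textbook models, 6 could be named. In the OCT4 knock-down HMGA2 and CCND1 were called higher, at 0.79 and 1.24 on the log2 scale, HMGA1 and E2F2 lower, at -0.61 and -0.74, and CDC25A and ARID3B were not called, at -0.53 and -0.47. In the SOX2 knock-down E2F2 was called lower and the same pair higher, and in the NANOG knock-down 1, CCND1, was called higher. Of the 8 ways of correcting and scaling the arrays, 6 gave the calls of E2F2 and of HMGA1 in the OCT4 knock-down, and the signs of HMGA1, CDC25A and ARID3B there each turned under 1, at 0.02, 0.08 and 0.05.

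Germ cell genes were represented by 3 named of 24 symbols, PRDM1, TFAP2A and TEX14. TFAP2A, which encodes transcription factor AP-2 alpha, was called lower after OCT4 (-0.62) and SOX2 silencing (-0.86) and higher after NANOG silencing (1.22), the first under 6 of the 8 ways of scaling. Of 13 symbols for enzymes that write or remove DNA methylation 2 were named. Both probes of the methyltransferase DNMT3B fell in all 3 knock-downs, at log2 fold changes of -1.60 and -2.32 for OCT4, -0.93 and -0.61 for NANOG and -1.69 and -2.47 for SOX2. UHRF1, which guides maintenance methylation, rose by 0.74 after OCT4 and by 0.71 after SOX2 silencing.

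Markers of other cell types moved with the same groups. Their names, too, come from the study's list of changed genes, which sets the counts. Over all probes 2.47% were called higher in the OCT4 knock-down, 0.668% in the NANOG knock-down and 2.52% in the SOX2 knock-down. Of 10 mesoderm symbols 7 could be named, and 6 of their 7 probes were called higher after OCT4 and after SOX2 silencing and 1, HAND1, after NANOG silencing, with median log2 fold changes of 1.74, 1.63 and 0.04. HAND1 rose by 3.13, 1.81 and 2.89 on the log2 scale with OCT4, NANOG or SOX2 silenced, and ACTA2 by 3.08 after OCT4 and 3.04 after SOX2 silencing. Of 7 markers of undifferentiated hEC cells 6 were named, and all 7 of their probes were called lower after OCT4 and after SOX2 silencing and 4 after NANOG silencing. Of 8 neuroectoderm symbols only NES and MAP2 were named. Both were called higher after OCT4 and after SOX2 silencing and NES after NANOG silencing. The MAP2 calls held under 5 of the 8 ways of scaling. The paper lists PAX6, SOX1, NEUROD1, OLIG2 and OTX1 of this list as not significantly expressed in any knock-down. GATA3, the only named trophoblast gene, missed the 1.5-fold limit in every knock-down and was not called. Its log2 fold changes were 0.51, -0.48 and 0.38 with OCT4, NANOG or SOX2 silenced (limma, adjusted p = 4.03e-06, 3.17e-05 and 4.49e-05). In that order, the absence of a call held under 4, 6 and 7 of the 8 ways of scaling. No endoderm symbol could be named. Of the interferon response to double-stranded RNA, G1P2 rose by 1.40 and 1.46 in the OCT4 and SOX2 knock-downs and IFIT1 by 0.80 in the NANOG knock-down, the latter under 6 of the 8 ways of scaling. The part of these differences in the members' values was not tested.

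Promoter sequence was taken from RefSeq (GRCh38.p14), which gave the 250 bases before the start of 5 of the 7 genes, LIN28 and PRDM14 being the others. They were searched on both strands for ATGCAAAT (the octamer bound by OCT4), CATTGT and CTTTGT (short SOX motifs), TATAAA and GGGCGG. The promoters of ZNF206 and VENTX2, which fell most after NANOG silencing, and of UTF1 and DPPA3, which differed most between knock-downs, are shown with matches in capitals, where CCGCCC is GGGCGG on the other strand.
ZNF206 promoter (chr16:3099295-3099544, minus strand): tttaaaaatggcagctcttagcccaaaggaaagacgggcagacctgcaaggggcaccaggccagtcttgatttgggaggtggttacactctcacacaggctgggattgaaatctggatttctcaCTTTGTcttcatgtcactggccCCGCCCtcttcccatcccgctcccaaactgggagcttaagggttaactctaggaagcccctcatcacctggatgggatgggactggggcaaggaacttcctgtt
VENTX2 promoter (chr10:133237605-133237854, plus strand): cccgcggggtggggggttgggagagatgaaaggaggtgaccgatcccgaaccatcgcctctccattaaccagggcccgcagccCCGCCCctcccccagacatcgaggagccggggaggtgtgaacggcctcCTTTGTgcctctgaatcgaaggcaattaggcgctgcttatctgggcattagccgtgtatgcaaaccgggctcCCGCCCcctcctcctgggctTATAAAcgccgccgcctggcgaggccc
UTF1 promoter (chr10:133229967-133230216, plus strand): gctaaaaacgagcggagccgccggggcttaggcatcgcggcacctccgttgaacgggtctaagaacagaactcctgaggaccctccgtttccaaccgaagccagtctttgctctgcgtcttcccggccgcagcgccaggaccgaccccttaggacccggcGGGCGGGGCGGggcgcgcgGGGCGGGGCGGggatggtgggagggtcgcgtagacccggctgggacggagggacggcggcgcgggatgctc
DPPA3 promoter (chr12:7711183-7711432, plus strand): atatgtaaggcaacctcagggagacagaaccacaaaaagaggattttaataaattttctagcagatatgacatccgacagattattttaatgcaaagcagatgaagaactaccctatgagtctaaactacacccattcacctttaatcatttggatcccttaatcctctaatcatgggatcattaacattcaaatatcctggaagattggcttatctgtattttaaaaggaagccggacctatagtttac

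ATGCAAAT was in none of the 5 windows and in 1.63% of all 35116 promoters, and CATTGT was in none and in 9.29% of all. CTTTGT was in those of ZNF206 and VENTX2 and in 13.7% of all, and TATAAA was in that of VENTX2, its first base 27 bases before the start, and in 10.7% of all. GGGCGG was in 4 of the 5, with 4 matches in UTF1 (in 2 pairs whose matches share 1 base), 2 in VENTX2 and 1 each in ZNF206 and DPPA4, and in 42.6% of all. The DPPA3 window held no match. Its G and C content was 35.6% with 2 CG dinucleotides, against 70.8% and 32 in UTF1 and a median of 58% and 11 over all promoters. A match is a run of letters and not a site, and no match says only that these letters are not in this window.

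In the RefSeq gene order UTF1 and VENTX are next to each other on chromosome 10, and both fell in all 3 knock-downs. Neighbours, too, were named through the study's list of changed genes, so an unchanged neighbour could hardly be named. None of the other genes nearest to UTF1 and VENTX had a name there, and their probes were not read. DPPA3 lies on chromosome 12 beside GDF3 and near NANOG. After NANOG silencing GDF3 stood at a log2 fold change of -1.31, outside the interval of either DPPA3 probe.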

How the data were processed

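Total RNA from 4 groups of NCCIT cells was hybridised to 12 Illumina BeadChips, 3 per group. The deposited array files hold raw bead-averaged intensities, with the background not subtracted, and a detection score, a fraction from 0 to 1 (per the file headers). They were exported with BeadStudio 1.0 per the labels. The authors also deposited a table of background-subtracted, rank-invariant normalized mean intensities of each group, in which many undetected probes are empty. From the raw intensities, background was corrected with limma 3.58.1 in R 4.3.3 (normexp, controls inferred from the detection scores, offset 50), followed by quantile normalization and log2. The 12 arrays were fitted with 4 group means and no covariate, with two-sided moderated tests, Benjamini-Hochberg adjustment over 47293 probes within each of 6 comparisons, and calls at an adjusted p under 0.01 and at least 1.5-fold. The number of arrays limits the precision. Groups follow the labels; replicate numbers come from the file headers.

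Where no array of a group detected a probe, the fold is a bound, taken against the lowest detected signal of each array, or the probe's own where higher. Probes above that lowest signal can still go undetected, so a bound may be somewhat too high. Members and gene lists were chosen with earlier results of these data known. Named genes are the 8 member probes, the targeted genes, up to 6 genes of each list called after OCT4 and also after SOX2 silencing, by size of change after OCT4 silencing, and the 3 probes most correlated with each member among those detected in mock; other list genes in a count of 7 or fewer were named after their values were seen. Probe names came from the study's list of changed genes, which names 2985 probes. The fit was tested on simulated data. Alternatives were other offsets and background corrections, other scalings, a detection filter, the 2 groups alone, the methods' t-test, a replicate block, another threshold, leaving out each array and, chosen after seeing the data, rank-invariant scaling and no scaling. The files give no slide or scan. Some list genes are not reported here.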

Additional observations from a re-analysis of the deposited data

How the results depend on the processing

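The falls of DPPA4, both DPPA3 probes, UTF1, ZNF206, VENTX2 and PRDM14 after OCT4 or SOX2 silencing kept their direction and their call under all alternatives with a test. Under the methods' t-test with Benjamini-Hochberg adjustment, member calls went from 6 to 0 for NANOG against mock and from 8 to 5 for SOX2 against NANOG, and without adjustment 1 member, UTF1, was called higher between OCT4 and SOX2, as with no normalization between arrays (1). Rank-invariant scaling and no normalization were chosen after seeing the data. Probes called lower against mock numbered 905 for OCT4, 276 for NANOG and 877 for SOX2. The OCT4 count became 33183 under median scaling (which shifted the median of all probes by -0.65, and by -0.20 and -0.28 for NANOG and SOX2), 561 under the adjusted methods' t-test, 3620 at an adjusted p under 0.05 with no fold limit, 2325 under rank-invariant scaling (shifts of -0.48, -0.16 and -0.11) and 211 with no normalization. Its higher calls were 1167, against 932, 1415 and 5388 under median scaling, rank-invariant scaling and no normalization. The NANOG count became 459 at offset 16, 182 without background correction, 462 and 22 under the unadjusted and adjusted methods' t-test, 1665 with no fold limit and 123 with no normalization, with 316 higher calls in the main setting and 250 and 565 under median scaling and no normalization. The SOX2 count became 463 under the adjusted methods' t-test, 3363 with no fold limit, 575 under rank-invariant scaling and 383 with no normalization, with 1192 higher calls in the main setting and 1511 and 2063 in the last 2. Between OCT4 and NANOG, 749 lower calls became 477 without background correction, 1417 under median scaling, 1168 and 335 under the unadjusted and adjusted methods' t-test, 3216 with no fold limit and 243 with no normalization. Between SOX2 and NANOG, 754 became 1133 at offset 16, 482 without background correction, 276 under the adjusted methods' t-test, 3210 with no fold limit and 468 under rank-invariant scaling. Between OCT4 and SOX2, 0 calls in either direction became 13 without background correction, 76 under median scaling, 3 among detected probes, 1 with only those groups, 34 under the unadjusted methods' t-test, 76 under rank-invariant scaling and 148 with no normalization. In that comparison, where the main setting called no member, signs turned under median scaling (DPPA4 -0.059, second DPPA3 probe -0.14, ZNF206 -0.12, VENTX2 -0.11, PRDM14 -0.30), under rank-invariant scaling (-0.059, -0.14, -0.12, -0.11 and -0.30), under cyclic loess (-0.0072, -0.099, -0.081, -0.057 and -0.033) and, for LIN28, with no normalization (0.32). The cause of these changes was not tested.

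Leaving out 1 array gave 7 to 8 member calls for OCT4, 5 to 6 for NANOG, 7 to 8 for SOX2, 7 to 8 between OCT4 and NANOG, and 8 between SOX2 and NANOG. Over all probes it gave 868 to 914, 251 to 310, 860 to 911, 693 to 783 and 726 to 811 lower calls, and 0 to 1 between OCT4 and SOX2, the 1 without mock replicate 2. No pairing by replicate number was seen, which does not exclude one. Deviations of arrays with the same number correlated at -0.47 to 0.48, and those with other numbers at -0.45 to 0.48. Of the 12 arrays, 2 matched their own number best. With the replicate number as a block, member calls were 8, 6, 7, 7, 8 and 0 in the same order of comparisons, and lower calls over all probes 899, 269, 875, 747, 743 and 0. A slide or scan block was not run, since the files name neither. With 3 arrays a group, folds of probes near background are bounds or low estimates.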
